A study of Mus musculus with 8 samples.

Results

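The genes described here are 27 genes of cholesterol and fatty acid synthesis, read in single-cell RNA libraries of mouse lung tumours. They were chosen by symbol, with earlier results of these data known. All 27 were found among the 32286 gene features of each of the 4 libraries. By role, 7 act in the mevalonate steps, 3 in the steps to squalene and lanosterol, 7 between lanosterol and cholesterol, 4 are regulators or a carrier, and 6 make fatty acids. The tumours were lung adenocarcinomas of KPC mice, a genetically engineered strain, started by lentivirus given into the trachea. CRISPR activation was aimed at the tumour cells from the start, with dead guide RNAs to Malat1 (labelled mA1) or to Tomato (labelled Con), and no group without CRISPR activation was part of the comparison. The largest tumours, 4 per group, were taken at 16 weeks. Their cells carried hashtag antibodies to CD45 and to MHC class I, and each group has 2 libraries with 2 hashtags each, so that cells of 1 library with 1 hashtag were taken as 1 tumour. Whether each came from its own animal is not labelled, and the p-values describe the spread among these tumours or libraries, part of which may be technical. No age or sex of the mice was labelled.

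Cholesterol is built from acetyl-CoA through mevalonate, squalene and lanosterol, and fatty acids from acetyl-CoA through malonyl-CoA. Transcription factors of the SREBP family switch on both sets of genes when sterols in the endoplasmic reticulum are low, and Insig proteins hold these factors back when sterols are high. In the lung, alveolar type II (AT2) cells make the lipids of surfactant, and alveolar macrophages take up and break down spent surfactant.

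Promoter sequences are shown because these genes share a regulator and the levels below differ between cell classes. RefSeq promoters (build GRCm38.p6) from 250 bases before to 50 bases after the start were held for 21 of the 27 genes, and Scd1, Scd2, Stard4, Fdft1, Sqle and Fdps had no entry. Each was searched on both strands for TCACNCCAC, a form of the sterol regulatory element, and for CCAAT, the motif bound by NF-Y, a factor that acts beside SREBP. The first was present in 1.24% of all 32851 promoters and, among these genes, in that of Hmgcs1. CCAAT was present in 37.4% of all promoters and in 19 of the 26 promoters of these genes (73.1%), covering 18 of the 21 genes. GGGCGG, also searched but not marked below, was present in 35.7% of all promoters and in 73.1% of these 26. Below, capitals mark TCACNCCAC and CCAAT, with CCAAT given as ATTGG where it lies on the other strand.
Hmgcs1, chr13:119690101-119690400, + strand: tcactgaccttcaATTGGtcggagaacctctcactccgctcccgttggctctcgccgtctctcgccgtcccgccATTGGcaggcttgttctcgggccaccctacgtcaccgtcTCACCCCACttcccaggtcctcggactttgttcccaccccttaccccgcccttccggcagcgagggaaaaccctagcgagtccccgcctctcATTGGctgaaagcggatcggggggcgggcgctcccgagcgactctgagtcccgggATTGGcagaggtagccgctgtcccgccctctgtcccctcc
Fasn, chr11:120824498-120824797, - strand: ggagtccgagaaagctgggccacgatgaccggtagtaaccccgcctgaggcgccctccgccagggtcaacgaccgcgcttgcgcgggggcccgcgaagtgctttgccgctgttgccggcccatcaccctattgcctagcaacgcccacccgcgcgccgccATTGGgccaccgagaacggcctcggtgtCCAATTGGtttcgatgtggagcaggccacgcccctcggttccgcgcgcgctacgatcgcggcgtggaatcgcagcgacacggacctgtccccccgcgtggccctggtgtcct
Insig1, chr5:28071162-28071461, + strand: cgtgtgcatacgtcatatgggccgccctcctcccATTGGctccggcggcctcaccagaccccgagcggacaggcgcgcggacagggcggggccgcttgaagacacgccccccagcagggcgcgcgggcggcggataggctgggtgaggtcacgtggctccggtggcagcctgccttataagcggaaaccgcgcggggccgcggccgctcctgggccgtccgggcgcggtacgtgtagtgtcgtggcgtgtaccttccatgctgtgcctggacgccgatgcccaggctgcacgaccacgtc
The Hmgcs1 window held 1 TCACNCCAC and 4 CCAAT, all 4 on the other strand. The Fasn window held 3 CCAAT, of which 2 overlap as CCAATTGG, and the Insig1 window held 1. A match describes these letters only.

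The 4 matrices kept 7341 and 3773 cells (61759144 and 42648124 UMIs) in the mA1 libraries and 7060 and 5599 cells (67530608 and 47808192 UMIs) in the Con libraries. Clusters were made without the 27 genes and related lipid genes, and named from marker genes. Malat1, the targeted RNA, made up 2.88% and 4.59% of the UMIs of tumour-like epithelial cells in mA1, against 4.15% and 2.72% in Con, so each group held 1 high and 1 low library (log2 fold change 0.13 ± 0.32 SE, edgeR adjusted p = 0.933). No rise of Malat1 passed the test, and mA1 therefore names the libraries with this label. Con library 2 stood apart: its 2 tumours had 1418 and 1314 CPM of Xist in alveolar macrophage-like cells and no UMI of the Y-linked gene Ddx3y, whereas the other 6 had at most 1.60 CPM of Xist and 35.5 to 56.5 CPM of Ddx3y. These levels match female cells in Con library 2 and male cells in the other libraries. Sex and group were thus partly confounded in every comparison of mA1 with Con, and the part of sex was not tested. Libraries shared 86 to 261 cell barcodes by pair, most between the 2 mA1 libraries. In these libraries, fewer cells that express a gene and less RNA per cell cannot be told apart in a summed level.

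3 classes carry most of the results. AT2-like cells, led by Slc34a2, Sftpc, Cxcl15 and Lamp3, numbered 15 and 12 in the mA1 libraries and 83 and 17 in the Con libraries. Scd1 was also among their 10 leading genes, although it took no part in the clustering. Tumour-like epithelial cells, led by S100a14, Gzme, Krt7 and Cldn4, numbered 146 and 131 in mA1 and 506 and 159 in Con. They joined 4 sub-clusters, numbered 1, 4, 5 and 6. Against all cells outside the class, each had 2 to 4 of the 8 tumour epithelial markers among its 10 leading genes, and sub-cluster 1 had the alveolar type I markers Ager and Aqp5 as well. Against the other epithelial cells, the leading genes of sub-cluster 1 held 3 alveolar type I markers, those of sub-cluster 4 the plasma cell marker Jchain and those of sub-cluster 5 the basophil and mast marker Mcpt8, and none of the 4 held a tumour epithelial marker. Results of this class are therefore also given for sub-clusters by number. Alveolar macrophage-like cells numbered 1967 and 1261 in mA1 and 1712 and 767 in Con. The 10 alveolar macrophage markers summed to 23.98 to 176 CPM (UMIs of a gene per 1000000 UMIs of that class and library) in AT2-like cells and to 17551 to 21227 CPM in the macrophages. The 8 tumour epithelial markers were present in AT2-like cells too, at 19199 and 5464 CPM in mA1 and 10352 and 1374 CPM in Con.

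The 27 genes together held far more of the RNA of AT2-like cells than of the other 2 classes. Their summed level was 3177 and 6666 CPM in the mA1 libraries and 4045 and 19494 CPM in the Con libraries. Tumour-like epithelial cells had 913 and 743 CPM in mA1 and 850.5 and 942 CPM in Con, and alveolar macrophage-like cells 909 and 874 CPM in mA1 and 783 and 869.9 CPM in Con. The AT2-like levels of the 4 libraries did not overlap those of either other class, and those of the other 2 classes overlapped each other. What made up the sum differed. Scd1 alone gave 54.0% to 69.4% of these UMIs in AT2-like cells, 8.62% to 29.8% in tumour-like cells and 0.308% to 0.890% in macrophages.

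**Figure D1:**
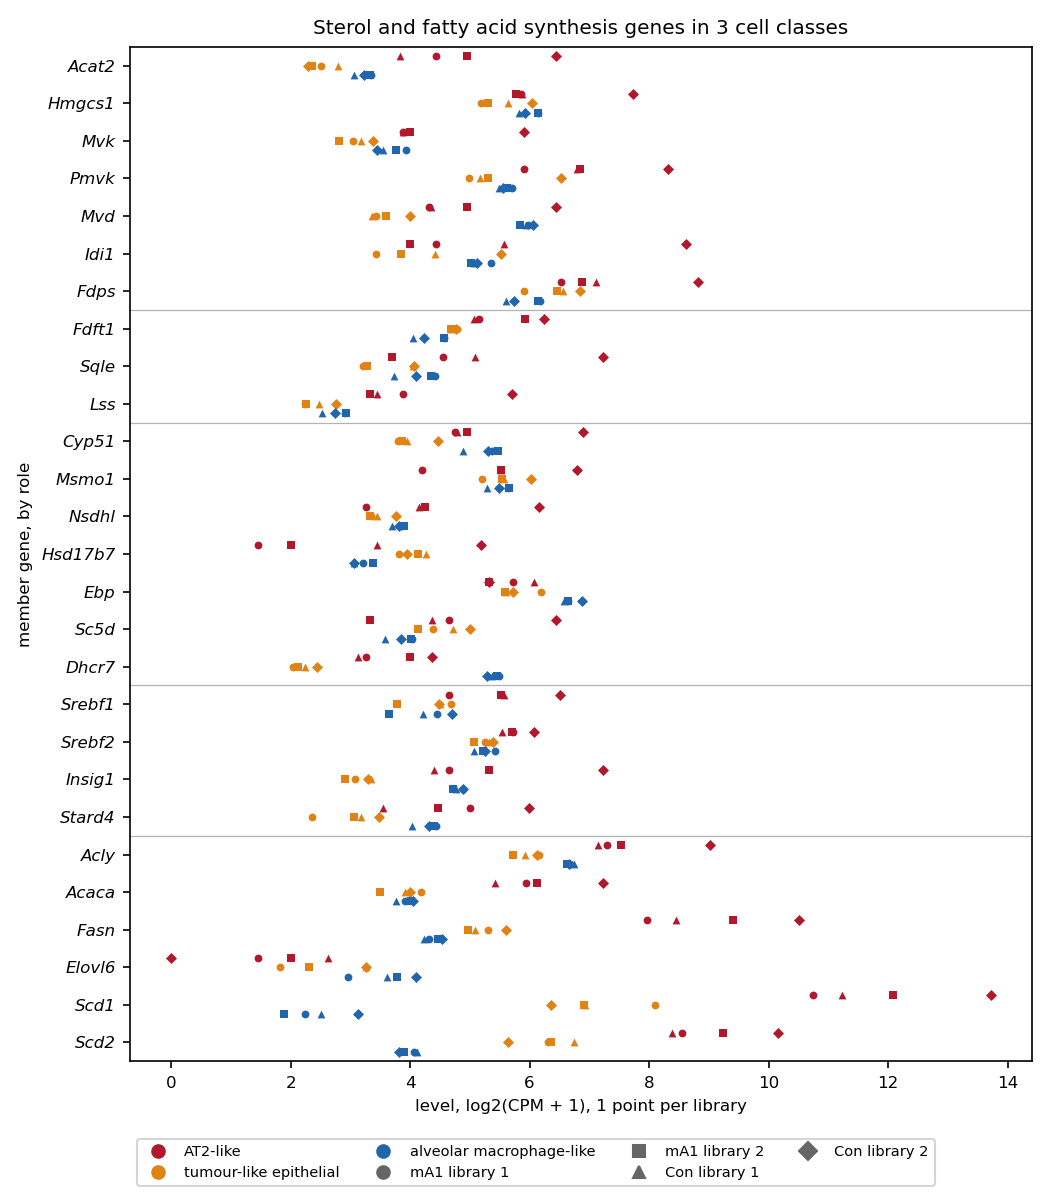
Level of each of the 27 genes, as log2(CPM + 1), in AT2-like, tumour-like epithelial and alveolar macrophage-like cells, with 1 point per library and its shape naming the library; lines part the roles. Within their own rows, the AT2-like points of Scd1, Fasn and Scd2 lie right of those of the other 2 classes, and the Con library 2 diamond is the highest AT2-like point for most genes.

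In AT2-like against tumour-like epithelial cells, 21 of the 27 genes were higher and 0 were lower at an adjusted p under 0.05 (edgeR quasi-likelihood, Benjamini-Hochberg over all 11680 genes tested, library as a block, 4 libraries). Of all genes tested, 9.49% were higher and 9.26% were lower. The median log2 fold change was 1.57 over the 27 genes and -0.07 over all genes. In single libraries, 20 genes were higher in AT2-like cells in all 4, Elovl6 was lower in all 4, and 6 differed in sign. The classes were set from other genes of the same cells, so the contrast describes these clusters.

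The fatty acid genes held the 3 largest differences. Scd1, a desaturase that makes oleate and palmitoleate, had 1716 and 4358 CPM in mA1 and 2389 and 13519 CPM in Con in AT2-like cells, against 272 and 119 CPM in mA1 and 121 and 81.2 CPM in Con in tumour-like cells. No library overlapped, and the log2 fold change was 4.90 ± 0.88 (SE; adjusted p = 0.0158). Fasn, the fatty acid synthase, had 250.3 and 680.4 CPM in mA1 and 349 and 1449 CPM in Con in AT2-like cells, against 38.5 and 30.3 CPM in mA1 and 33.1 and 47.7 CPM in Con in tumour-like cells. Its log2 fold change was 3.95 ± 0.36 (adjusted p = 3.54e-05). Scd2, a related desaturase, had 373 and 602 CPM in mA1 and 331 and 1139 CPM in Con in AT2-like cells, against 78.0 and 80.6 CPM in mA1 and 105 and 48.6 CPM in Con (log2 fold change 2.87 ± 0.45, adjusted p = 0.00373). Acaca, which makes malonyl-CoA, was higher by 2.38 ± 0.29 (adjusted p = 0.000137), at 42.0 to 149 CPM against 10.3 to 17.2 CPM. Acly, which makes cytosolic acetyl-CoA from citrate, was higher by 1.83 ± 0.28 (adjusted p = 0.000830), at 139.8 to 517 CPM against 51.7 to 70.6 CPM. Elovl6, which lengthens palmitate, was the exception: it had 1, 1, 12 and 0 UMIs in the AT2-like cells of mA1 libraries 1 and 2 and Con libraries 1 and 2, and its log2 fold change was -0.85 ± 0.59 (adjusted p = 0.345).

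All 7 mevalonate genes were higher in AT2-like cells. The largest difference was that of Acat2, which joins acetyl-CoA units, at 20.7 and 30.0 CPM in mA1 and 13.3 and 86.1 CPM in Con, against 4.69 and 4.13 CPM in mA1 and 5.93 and 3.87 CPM in Con in tumour-like cells (log2 fold change 2.65 ± 0.50, adjusted p = 0.00489). The other mevalonate genes had log2 fold changes of 0.85 (Hmgcs1, HMG-CoA synthase) to 1.71 (Idi1, isopentenyl diphosphate isomerase). The 3 genes of the squalene and lanosterol steps were higher as well. Lss, which closes the sterol rings, had 8.99 to 50.9 CPM against 3.72 to 5.80 CPM (1.94 ± 0.44, adjusted p = 0.00889), and Sqle, squalene epoxidase, 11.99 to 149 CPM against 8.21 to 15.8 CPM (1.79 ± 0.41, adjusted p = 0.0134), and Fdft1, squalene synthase, was higher by 0.91 ± 0.25 (adjusted p = 0.0225). For Sqle the classes overlapped, since mA1 library 2 had 4 UMIs in AT2-like cells.

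Fewer of the later sterol genes differed. Cyp51, Nsdhl and Dhcr7, which act between lanosterol and cholesterol, were higher by 1.46, 1.19 and 1.68. Msmo1 (0.05 ± 0.27), Ebp (-0.03 ± 0.24), Sc5d (0.32 ± 0.33) and Hsd17b7 (-0.63 ± 0.52) did not pass, with adjusted p of 0.443 to 0.958. Among the regulators, Insig1, which holds SREBP in the endoplasmic reticulum, had 24.2 and 39.0 CPM in mA1 and 20.2 and 149 CPM in Con, against 7.43 and 6.50 CPM in mA1 and 9.17 and 8.76 CPM in Con (2.43 ± 0.48, adjusted p = 0.00947). Stard4, a cholesterol carrier, was higher by 1.87 ± 0.43 (adjusted p = 0.00933). Srebf1 was higher by 1.31 ± 0.30 (adjusted p = 0.00946), whereas Srebf2 (0.55 ± 0.21, adjusted p = 0.0875) did not pass.

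The count rested in part on single libraries and on depth. It was 13 without mA1 library 2, 14 without Con library 1 and 18 without Con library 2. Genes called in either direction numbered 985 without mA1 library 2 and 883 without Con library 1. With each cell thinned to 1000 UMIs it was 5 (Scd1, Fasn, Scd2, Acly and Pmvk), where 417 genes were called in either direction. Members below the filter on low counts after thinning were not tested, so this 5 is not out of 27. Against tumour-like sub-clusters 1, 4 and 6 taken alone, 12, 19 and 21 genes were higher and 0 lower. In the same fits, 24 of 27, 24 of 26 and 25 of 27 tested members had positive log2 fold changes. Of all genes tested, 4266 of 8962, 4341 of 9017 and 5029 of 10454 did. Scd1 missed the threshold without a filter on low counts (4.87, adjusted p = 0.0581), Sqle without the library block (1.97, adjusted p = 0.0615) and Insig1 without mA1 library 2 (2.41, adjusted p = 0.0535). The AT2-like sum of the 27 genes had the same order over the libraries as the sum of the 9 AT2 markers (88230 and 139445 CPM in mA1, 133743 and 237989 CPM in Con), and the reverse order of the tumour markers given above. The part of this mixture in the result was not tested.

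Genes fixed as other members of these pathways were counted in the same fit. Of 14 other sterol synthesis and uptake genes, 6 were higher and 0 lower. They included Soat1, which esterifies cholesterol (2.48), and Npc2, a lysosomal cholesterol carrier (1.98). Of 24 tested other fatty acid and lipid genes, 11 were higher and 2 lower, led by the desaturases Fads2 (5.13) and Fads1 (4.96), then Elovl1 (3.02) and Lpcat1 (2.79), which acts in surfactant lipid synthesis. Of 20 dissociation and immediate early genes, 9 were lower in AT2-like cells and 0 higher, and their part in the result was not tested.

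Against alveolar macrophage-like cells, AT2-like cells were higher in 10 and lower in 4 of the 27 genes, where 24.3% of all 12784 genes were higher and 27.9% lower. Scd1 had the largest difference. Its macrophage levels were 3.71 and 2.69 CPM in mA1 and 4.69 and 7.74 CPM in Con (log2 fold change 9.78 ± 0.46, adjusted p = 1.38e-10). Scd2 was higher by 5.15 ± 0.36, Fasn by 4.73 ± 0.38, Acaca by 2.27 ± 0.26, Acat2 by 1.72 ± 0.39, Lss by 1.48 ± 0.42, Pmvk by 1.39 ± 0.40 and Srebf1 by 1.35 ± 0.28. Dhcr7, which makes cholesterol from 7-dehydrocholesterol, fell by 1.98 ± 0.32 in AT2-like cells, with 8.63 and 14.99 CPM in mA1 and 7.72 and 19.6 CPM in Con, against 43.9 and 42.9 CPM in mA1 and 40.5 and 38.0 CPM in Con in macrophages. Elovl6 fell by 1.63 ± 0.48, and Mvd and Ebp were lower by about 1 log2 unit (-1.02 and -1.01). Without Con library 2, Lss no longer passed (0.86, edgeR adjusted p = 0.0653). With thinned cells, of the members still above the filter on low counts, 3 were higher (Scd1, Scd2 and Fasn) and Ebp alone lower. Of 10 genes induced by LXR, a sterol sensor, or linked to cholesterol efflux, 1 was higher and 8 lower in AT2-like cells, led by Cyp27a1, a sterol hydroxylase (-8.85), Abcg1, a cholesterol exporter (-8.69), Ch25h, which makes 25-hydroxycholesterol (-8.46), and Lipa, the lysosomal lipase (-4.13).

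In tumour-like epithelial against alveolar macrophage-like cells, 6 genes were higher and 11 lower, where 38.8% of all 13911 genes were higher and 36.2% lower. The members' shares were thus 6 of 27 and 11 of 27, near or below the background. The higher ones were Scd1 (4.88 ± 0.55), Scd2 (2.30 ± 0.13), Hsd17b7 (0.88 ± 0.16), Fasn (0.82 ± 0.12), Sc5d (0.68 ± 0.21) and Fdft1 (0.33 ± 0.13). Dhcr7 was the lowest, with 3.13 and 3.33 CPM in mA1 and 3.72 and 4.44 CPM in Con in tumour-like cells (-3.53 ± 0.16, adjusted p = 3.35e-09), against the 38.0 to 43.9 CPM of macrophages. Mvd, a decarboxylase of the mevalonate steps, had 9.78 and 11.1 CPM in mA1 and 9.31 and 15.02 CPM in Con, against 61.6 and 56.4 CPM in mA1 and 60.4 and 65.9 CPM in Con (-2.52 ± 0.15, edgeR adjusted p = 2.85e-08). Insig1 (-1.82 ± 0.14), Stard4 (-1.38 ± 0.23), Cyp51 (-1.34 ± 0.17), Elovl6 (-1.06 ± 0.21), Ebp (-0.99 ± 0.12) and Acat2 (-0.91 ± 0.19) were lower as well. Smaller falls that passed were those of Acly, Mvk and Nsdhl, by 0.76, 0.67 and 0.43. Of the 14 other sterol genes, 5 were higher and 5 lower, among them Soat1 (-2.38), Npc1 (-1.69) and Insig2 (1.21). With thinned cells 3 of the members still above the filter on low counts were higher, Scd1, Scd2 and Sc5d. Without Con library 1, and likewise without Con library 2, 4 were higher. With sub-cluster 1, 4 or 6 alone in place of the class, 4, 4 and 3 were higher and 14, 16 and 10 lower. In these fits, 8, 7 and 8 of the 27 members had positive log2 fold changes. Of all genes tested, 6332 of 13321, 6167 of 13142 and 6161 of 12876 did.

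The levels were ordered over the 17 classes shown in the heat map, without the few endothelial-like cells, of which Con library 2 held 2. AT2-like cells had the highest mean of 15 genes, and mature dendritic-like cells that of 4. With endothelial-like cells as a further class, AT2-like cells had the highest mean of 13 genes, and endothelial-like cells that of 2, Stard4 and Nsdhl. For most genes the top class overlapped the next one in its libraries. Scd1, Scd2, Fasn and Acaca were highest in AT2-like cells without overlap, and Mvd and Dhcr7 in macrophage sub-cluster 6, a cluster led by Ccl17 and Mmp12. Dhcr7 averaged 46.8 ± 2.34 CPM there (SD, n = 4 libraries), next to 41.3 ± 2.65 CPM in alveolar macrophage-like cells, and Mvd 98.4 ± 23.6 CPM next to 61.1 ± 3.90 CPM. Idi1 averaged 379 ± 145 CPM in mature dendritic-like cells, and 118 ± 183 CPM in AT2-like cells, where the libraries overlapped. The class next to AT2-like cells for Scd1 was B cell-like, at 257 ± 40.2 CPM, above the 148 ± 84.5 CPM of tumour-like cells, whereas CD4 T-like cells had 1.39 CPM. Elovl6, lowest of the fatty acid genes in AT2-like cells against macrophages, averaged 26.8 ± 4.98 CPM in NK-like cells.

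**Figure D2:**
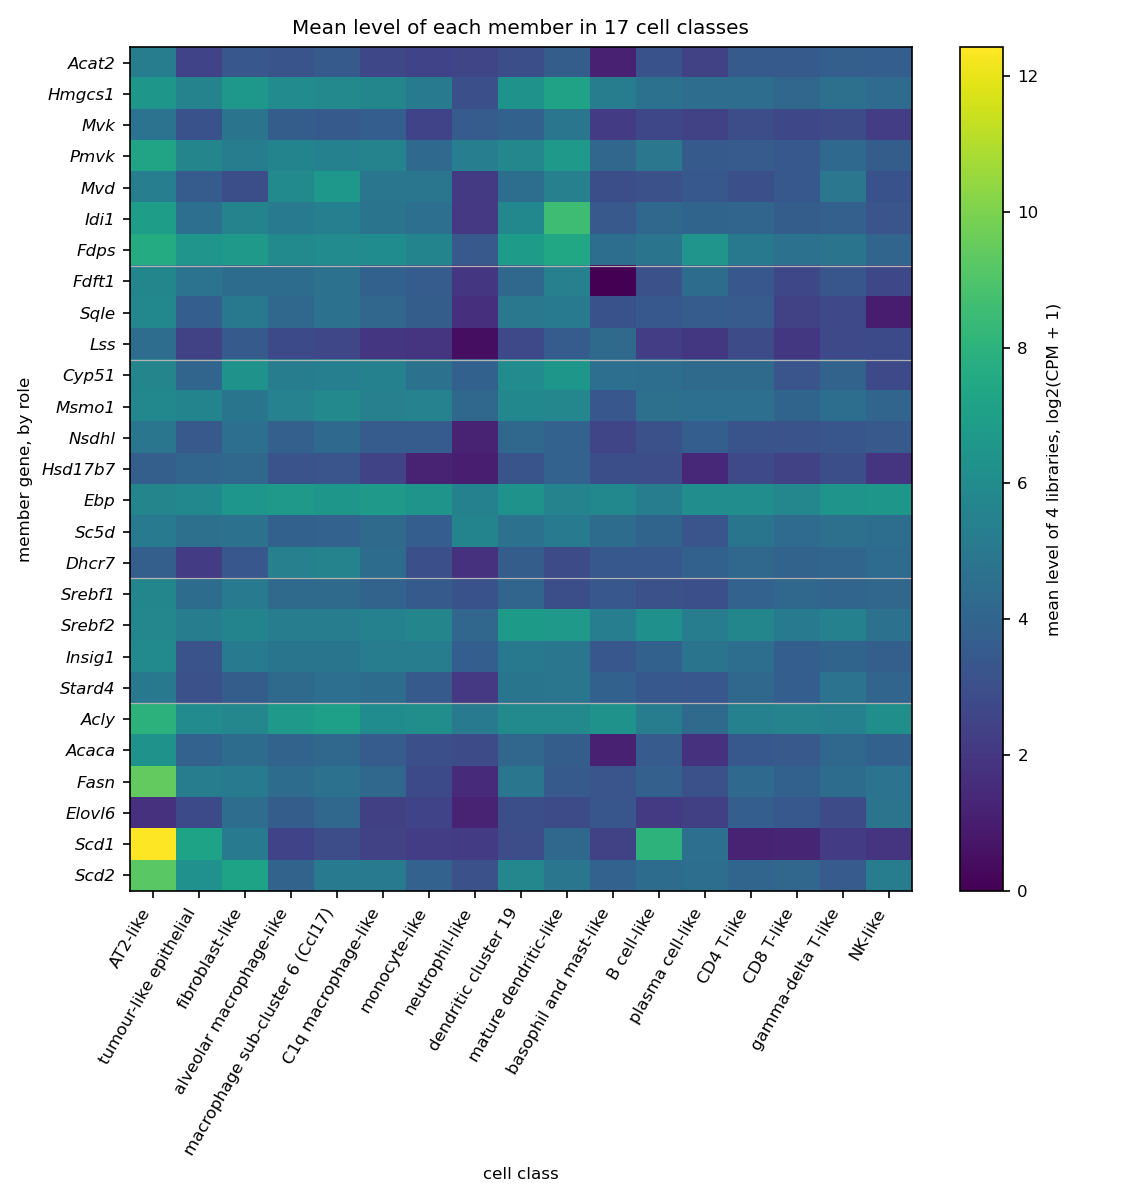
Mean level over 4 libraries of each of the 27 genes, as log2(CPM + 1), in 17 cell classes; rows are parted by role and brighter cells are higher. The AT2-like column is brightest for Scd1, Fasn and Scd2, and Idi1 is brightest in mature dendritic-like cells.

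Within alveolar macrophage-like cells, 2 sub-clusters led by proliferation genes (cycling) were set against the rest. Sub-clusters were made without the 27 genes. In cycling against other macrophages 3 genes were higher and 7 lower, where 25.1% and 25.4% of all 11578 genes were, so these shares are near or below the background. Msmo1, which removes methyl groups from lanosterol products, fell by 0.61 ± 0.07 (adjusted p = 1.93e-07), Mvd by 0.59 ± 0.06 (adjusted p = 2.03e-08) and Insig1 by 0.57 ± 0.07 (adjusted p = 1.55e-06). Hmgcs1, Cyp51, Acly and Scd2 fell by 0.35, 0.32, 0.30 and 0.28. Mvk (0.35 ± 0.12), Ebp (0.32 ± 0.05) and Stard4 (0.30 ± 0.09) were higher. With thinned cells, 0 of the members still above the filter on low counts were higher and 3 lower, and Stard4 turned to -0.04.

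A further state, led by Cxcl1, Cxcl2 and Inhba and called activated here, is described without a test. 4 genes were higher in its 4 libraries than in any library of resting macrophages, where 7.94% of all 11208 genes were, and 2 were lower, where 11.2% were. Scd2 averaged 27.5 ± 4.26 CPM in activated cells and 11.3 ± 2.09 CPM in resting cells (SD, n = 4 libraries). Insig1 averaged 42.2 ± 8.31 and 26.2 ± 2.74 CPM, Acly 130.2 ± 13.8 and 97.3 ± 3.22 CPM, and Mvd 82.3 ± 18.3 and 62.4 ± 2.49 CPM, each in activated and then in resting cells. Acat2 (6.07 ± 0.432 and 8.35 ± 0.609 CPM) and Lss (3.78 ± 1.23 and 6.94 ± 0.882 CPM) were lower in activated cells, again without overlap. The share of activated cells was 5.29% to 17.9% in mA1 tumours and 5.54% to 26.3% in Con tumours.

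**Figure D3:**
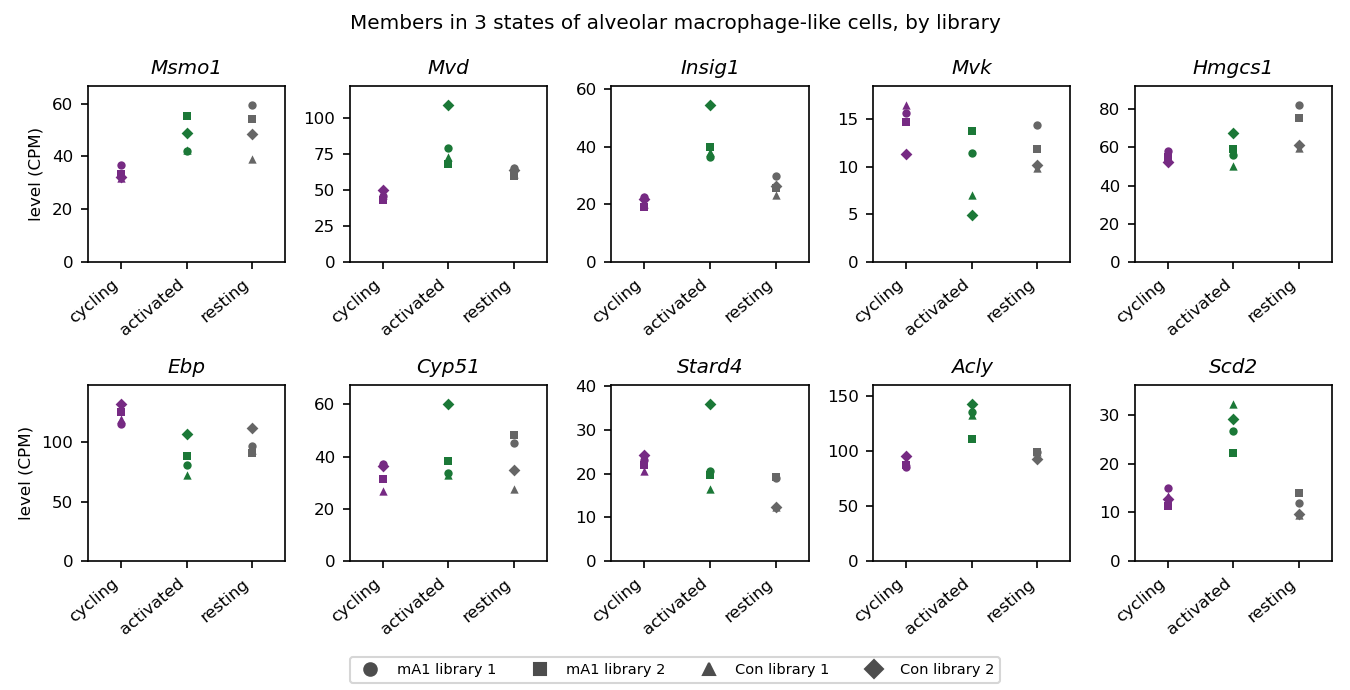
Level in CPM of the 10 genes with the largest cycling difference, in cycling, activated and resting alveolar macrophage-like cells, 1 point per library. Activated cells lie above both other states for Mvd, Insig1, Acly and Scd2, and cycling cells lie lowest for Mvd, Insig1 and Msmo1.

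Between mA1 and Con, the alveolar macrophage-like cells of the 8 tumours were compared. None of the 27 genes passed an adjusted p of 0.05 in edgeR. At an unadjusted p under 0.05, 12 of them passed, and in DESeq2 2 did. Of all 11208 genes tested, 4 passed (0.0357%), all lower, and 1011 had an unadjusted p under 0.05. Most of the log2 fold changes were above 0: 21 of the 27 log2 fold changes were positive, with a median of 0.17, next to 5517 positive of 11208 and a median of -0.00 over all genes. Groups did not overlap for 8 genes that were higher in mA1 (Hmgcs1, Mvk, Pmvk, Fdps, Fdft1, Sqle, Lss and Nsdhl), where 2.54% of all genes did so, and for 1 that was lower (Scd1), where 2.86% did so. Genes of 1 pathway are not independent, and the 27 were chosen with earlier results of these data known, so this count has no p. The class was not the same mixture of sub-clusters in each library. Sub-cluster 5 made up 23.2% and 27.8% of it in mA1 and 13.6% and 59.3% in Con. The 10 leading genes of sub-cluster 5 among macrophages held the tumour epithelial markers Epcam and Krt19 and 1 marker of its own class. They also held Xist, which was high in Con library 2 only. Without sub-cluster 5, 18 of the 27 log2 fold changes were positive, with a median of 0.11, 0 of the 27 genes passed and 2 of all genes did.

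Fdps, which makes farnesyl diphosphate, had 80.5, 66.9, 73.4 and 65.1 CPM in mA1 tumours, against 41.1, 51.2, 47.3 and 59.3 CPM in Con tumours. All mA1 values lay above all Con values, and the log2 fold change was 0.54 ± 0.10 (edgeR adjusted p = 0.169). Fdft1 had 23.7, 22.2, 22.6 and 22.7 CPM in mA1 against 13.1, 16.6, 18.99 and 16.1 CPM in Con (0.51 ± 0.10, adjusted p = 0.187). These 2 genes passed in DESeq2 (adjusted p = 0.00239 and 0.0214) and without a filter on low counts (adjusted p = 0.0201 and 0.0447). Without Con library 2 they had log2 fold changes of 0.60 and 0.58, each with an adjusted p of 0.205. Over all alternatives their adjusted p ran from 0.00239 to 0.938 and from 0.0214 to 0.998.

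Sqle had 21.04, 20.2, 20.3 and 18.4 CPM in mA1, against 8.76, 13.9, 15.6 and 17.1 CPM in Con, with the Con tumours spread more widely (0.56 ± 0.15, adjusted p = 0.391). Hmgcs1 had 77.7, 65.8, 71.2 and 67.0 CPM in mA1 against 45.3, 61.1, 63.0 and 54.6 CPM in Con (0.34 ± 0.10, adjusted p = 0.394). Mvk, mevalonate kinase, had 15.1, 13.9, 12.6 and 12.7 CPM in mA1 against 10.1, 11.1, 9.99 and 9.66 CPM in Con (0.41 ± 0.10, adjusted p = 0.302). These groups were parted, but by little for Hmgcs1 and Sqle. Lss had 7.39, 6.09, 6.76 and 6.46 CPM in mA1 against 5.80, 4.16, 6.05 and 5.31 CPM in Con (0.36 ± 0.15, edgeR adjusted p = 0.530), so its groups almost touched. The lowest mA1 and highest Con values were also close for Pmvk (48.1 and 47.4 CPM) and Nsdhl (13.3 and 13.1 CPM). Cyp51 had 41.6, 40.05, 44.8 and 41.6 CPM in mA1 against 23.9, 30.9, 34.9 and 43.2 CPM in Con (0.37 ± 0.13, adjusted p = 0.477), and 1 Con tumour reached the mA1 values. Sc5d, a sterol desaturase, had 15.8, 15.1, 17.4 and 12.5 CPM in mA1 against 8.51, 11.9, 12.5 and 14.8 CPM in Con, with overlap (0.38 ± 0.15, adjusted p = 0.508).

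Of the 6 fatty acid genes, 3 were positive, with a median of 0.02, against medians of 0.24 to 0.51 for the 3 groups of sterol enzymes. Scd1 had 3.90, 3.63, 3.21 and 2.09 CPM in mA1 against 5.06, 4.52, 8.86 and 6.25 CPM in Con (-0.88 ± 0.24, adjusted p = 0.391), all 4 mA1 values below all Con values. It passed without Con library 1 (-1.18, adjusted p = 0.0462), and its log2 fold change was -0.58 without Con library 2. Few macrophages held a UMI of it. Scd1 UMIs were seen in 3.81% and 3.33% of the macrophages of mA1 and 4.61% and 10.2% of those of Con. Thinned to 1000 UMIs, these were 0.204% and 0.238% in mA1 and 0.235% and 1.18% in Con, next to 0.221% and 0% in NK-like cells of mA1 and 1.04% and 0.258% in NK-like cells of Con. The thinned share was above that of NK-like cells in mA1 library 2 and Con library 2 and below it in the other 2 libraries. The 0% is 0 of 177 NK-like cells unthinned, for which the upper bound of the Wilson interval was 2.12%; for the 10.2% of Con library 2 macrophages the interval was 8.23% to 12.5%. Unthinned, NK-like cells had 0.434% and 0% in mA1 and 1.24% and 1.02% in Con at a median of 1840 to 2764 UMIs, where macrophages had a median of 13064 to 16520 UMIs. A list of AT2 transcripts that can be free in the cell suspension moved the same way between the groups in the macrophages. All 6 tested had negative log2 fold changes, with a median of -0.76, and Sftpb passed (-1.54 ± 0.15, edgeR adjusted p = 0.00432). The summed level of the 8 listed was 78.6 to 97.1 CPM in mA1. In Con it was 118 and 140.2 CPM in library 1 and 106 and 114 CPM in library 2. The order of the Con libraries was thus opposite to that of Scd1. The part of free RNA in the Scd1 difference was not tested. Elovl6 had 6.36, 7.06, 11.3 and 14.3 CPM in mA1 against 7.40, 13.1, 14.6 and 18.4 CPM in Con, with overlap (-0.43 ± 0.33, adjusted p = 0.721). Srebf1 varied more by library than by group, with 22.4, 19.98, 12.2 and 10.8 CPM in mA1 against 16.9, 17.97, 24.2 and 26.3 CPM in Con.

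**Figure D4:**
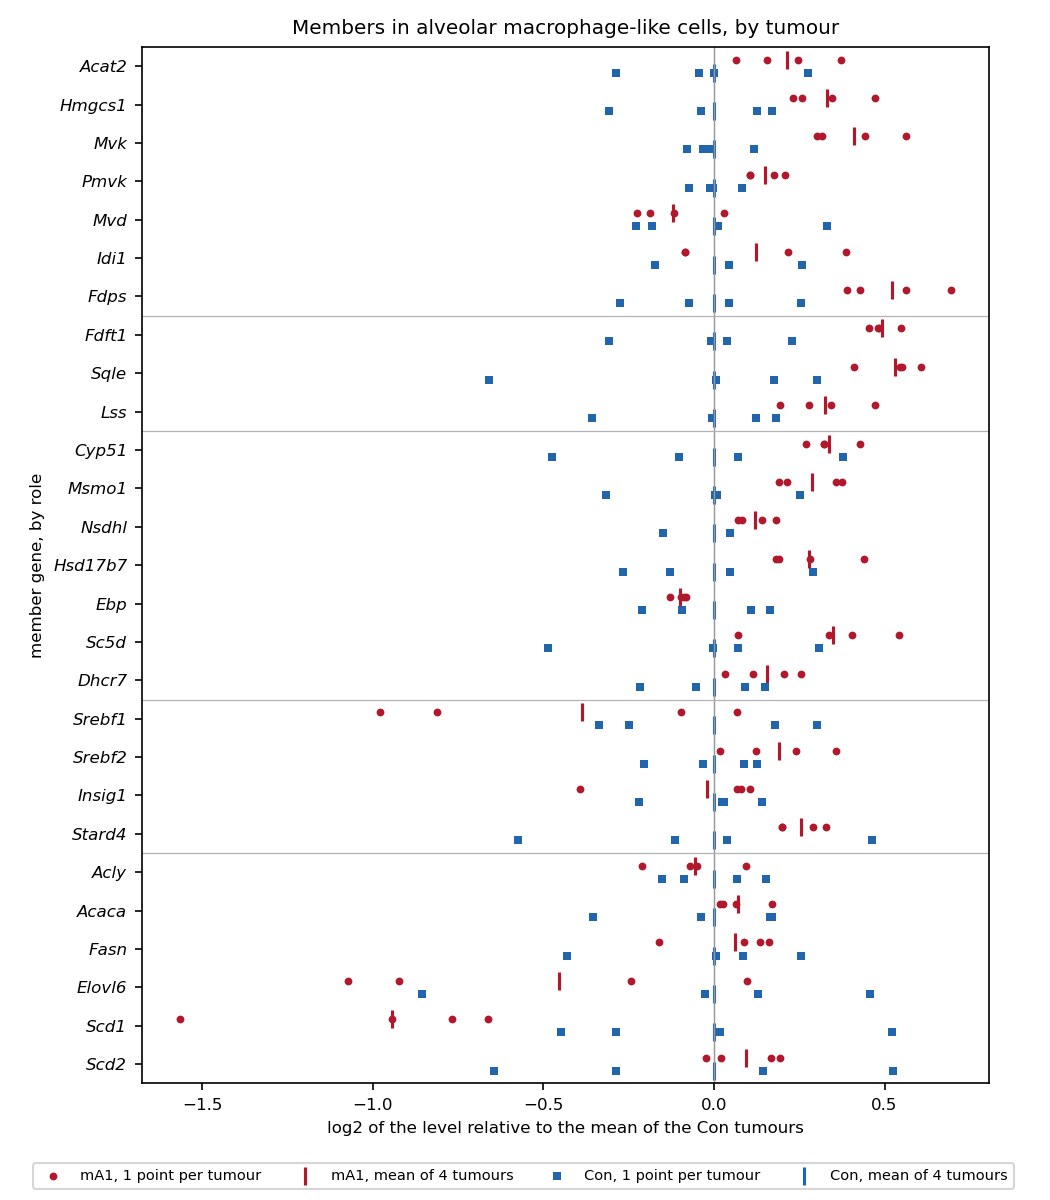
Level of each of the 27 genes in alveolar macrophage-like cells of each tumour, as log2 of the level relative to the mean of the 4 Con tumours; small points are tumours and ticks are group means, mA1 above Con in each row. mA1 points lie right of all Con points for the 8 genes from Hmgcs1 to Nsdhl named above and left of them for Scd1.

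Other values moved with the macrophage comparison. Of the 20 genes linked to tissue dissociation, all 20 had negative log2 fold changes with a median of -0.40, none past the adjusted threshold and 2 at an unadjusted p under 0.05. Cell cycle genes were positive in 14 of 22, with a median of 0.06. The 4 blood transcripts that can be free in the suspension were all positive, with a median of 1.49, and none passed. They summed to 61.3, 61.7, 5.49 and 5.37 CPM in mA1 tumours and to 16.7, 10.4, 9.71 and 5.31 CPM in Con tumours, so that mA1 library 1 alone stood high. Their part in the sterol genes' levels was not tested. The 2 tumours of a library resembled each other (consensus correlation 0.338 in limma). With each library taken as 1 sample, 0 genes of all passed. Without Con library 2, 21 of the 27 log2 fold changes were positive, and Cyp51 had 0.58 (edgeR adjusted p = 0.205). That fit kept Con library 1, the lower of the Con libraries for the sterol genes. Without the fatty acid genes and Srebf1, the members summed to 728 and 700 CPM in mA1 libraries 1 and 2. In Con libraries 1 and 2 this sum was 597 and 670 CPM, so Con library 2 lay nearer to mA1. With cells thinned to 1000 UMIs, 12 were positive. Members below the filter on low counts were not tested there, so this is not 12 of 27. In thinned macrophages, Hmgcs1 was seen in 5.41% and 6.35% of cells in mA1 and 4.52% and 6.84% in Con. Sqle was seen in 1.68% and 1.35% in mA1 and 0.821% and 2.63% in Con, so both overlapped. Dhcr7 (4.49% and 4.13% in mA1, 4.11% and 2.63% in Con) and Mvd (6.33% and 6.12% in mA1, 5.63% and 5.92% in Con) did not.

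Other genes of the pathways in the macrophages were counted as well. Of 14 other sterol genes, 11 were positive and 0 passed. Erg28 had 0.17 ± 0.08 (adjusted p = 0.553). Of 22 tested other fatty acid genes, 11 were positive and 0 passed, with Fads1 at 0.54 (adjusted p = 0.418) and Pcyt1a, of phosphatidylcholine synthesis, at 0.36 (adjusted p = 0.456). Of the 10 LXR and efflux genes, 7 were negative and 0 passed. Mylip, a ubiquitin ligase induced by LXR, had -0.57 ± 0.10 (adjusted p = 0.106), and Abcg1 -0.26 ± 0.07 (adjusted p = 0.391).

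CRISPR activation was aimed at tumour cells, and whether the tumour-like epithelial class alone holds them was not tested. In tumour-like epithelial cells, most log2 fold changes over the whole class had the other sign. Few of these cells carried 1 hashtag (25.3%), so the 2 libraries of each group were compared. None of the 27 genes passed in edgeR, 5 had an unadjusted p under 0.05, and DESeq2 called none. Of all 11852 genes, 10 were higher (0.0844%) and 1 lower (0.00844%), and 1035 had an unadjusted p under 0.05. 4 of the 27 log2 fold changes were positive, with a median of -0.34, next to 0.01 over all genes, and 6 were positive without Con library 2. Groups did not overlap for 15 genes that were lower in mA1, where 19.1% of all genes did so, and for 0 that were higher, where 20.8% did so.

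Idi1 had 9.78 and 13.3 CPM in mA1, against 20.3 and 45.1 CPM in Con (-1.49 ± 0.46, adjusted p = 0.489). Its Con value rested on library 2: without that library the log2 fold change was -0.79. Elovl6 had 2.54 and 3.97 CPM in mA1 against 8.62 and 8.53 CPM in Con (-1.38 ± 0.34, adjusted p = 0.291). Sqle had 8.21 and 8.73 CPM in mA1 against 15.6 and 15.8 CPM in Con (-0.89 ± 0.23, adjusted p = 0.306). Both were parted, with close values in Con. Pmvk, phosphomevalonate kinase, had 30.5 and 38.7 CPM in mA1 against 35.1 and 90.9 CPM in Con, with overlap (-0.86 ± 0.54, adjusted p = 0.726), and -0.00 without Con library 2. Scd1 was the member on the other side, with 272 and 119 CPM in mA1 against 121 and 81.2 CPM in Con, with overlap (0.92 ± 0.41, adjusted p = 0.630). Sc5d, Stard4, Hmgcs1, Fdps and Lss had log2 fold changes of -0.65, -0.65, -0.63, -0.51 and -0.46. Dissociation genes were negative in 17 of 20 (0 past the adjusted threshold), and the 3 tested haemoglobin transcripts had a median of -3.40 (0 past it); their part was not tested. Without a filter on low counts, Idi1, Elovl6 and Sqle passed as lower and Scd1 as higher. Without Con library 1, Idi1 (-1.99, adjusted p = 0.000673) and Pmvk (-1.43, adjusted p = 0.00607) passed.

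The make-up of the class differed between groups and libraries. Sub-cluster 6 made up 45.9% and 51.1% of it in mA1, against 14.2% and 24.5% in Con. Sub-cluster 5 made up 5.48% and 5.34% in mA1, against 7.12% and 50.3% in Con, and Xist was among its leading genes against the other epithelial cells. Sub-clusters 1 and 4 together held most of Con library 1, at 36.2% and 42.5%. Taken alone, 8 of 23 tested members were positive in sub-cluster 1 (median -0.17), 13 of 21 in sub-cluster 4 (median 0.11) and 7 of 23 in sub-cluster 6 (median -0.42), next to medians of about 0 over all genes (-0.00, 0.00 and -0.00). The sign of the class was thus not that of sub-cluster 4, where Pmvk had 0.33 and Fdps 0.19. Elovl6 passed as lower in sub-cluster 1 (-2.61 ± 0.59, edgeR adjusted p = 0.0436) but had 0.46 ± 0.78 in sub-cluster 6 (adjusted p = 0.998), and no other member passed in these 3. Sub-cluster 5 held 8 and 7 cells in mA1 and was not compared.

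The difference between the 2 classes was tested itself, with libraries as samples. For tumour-like epithelial minus macrophage group differences, 23 of the 27 genes were negative, 0 passed, and 11 had an unadjusted p under 0.05. Of all 13911 genes, 6674 were negative, 830 had an unadjusted p under 0.05, 7 were called higher (0.0503%) and 2 lower (0.0144%). The make-up of the tumour-like class given above enters this difference too. Sqle had -1.43 ± 0.28 (edgeR adjusted p = 0.105), Fdps -1.06 ± 0.26 (adjusted p = 0.268), Hmgcs1 -0.92 ± 0.23 (adjusted p = 0.268) and Scd1 1.76 ± 0.41 (adjusted p = 0.383). Without Con library 1, Idi1 (-2.14, adjusted p = 0.0211) and Pmvk (-1.63, adjusted p = 0.0203) passed as lower and Scd1 (2.37, adjusted p = 0.00796) as higher.

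**Figure D5:**
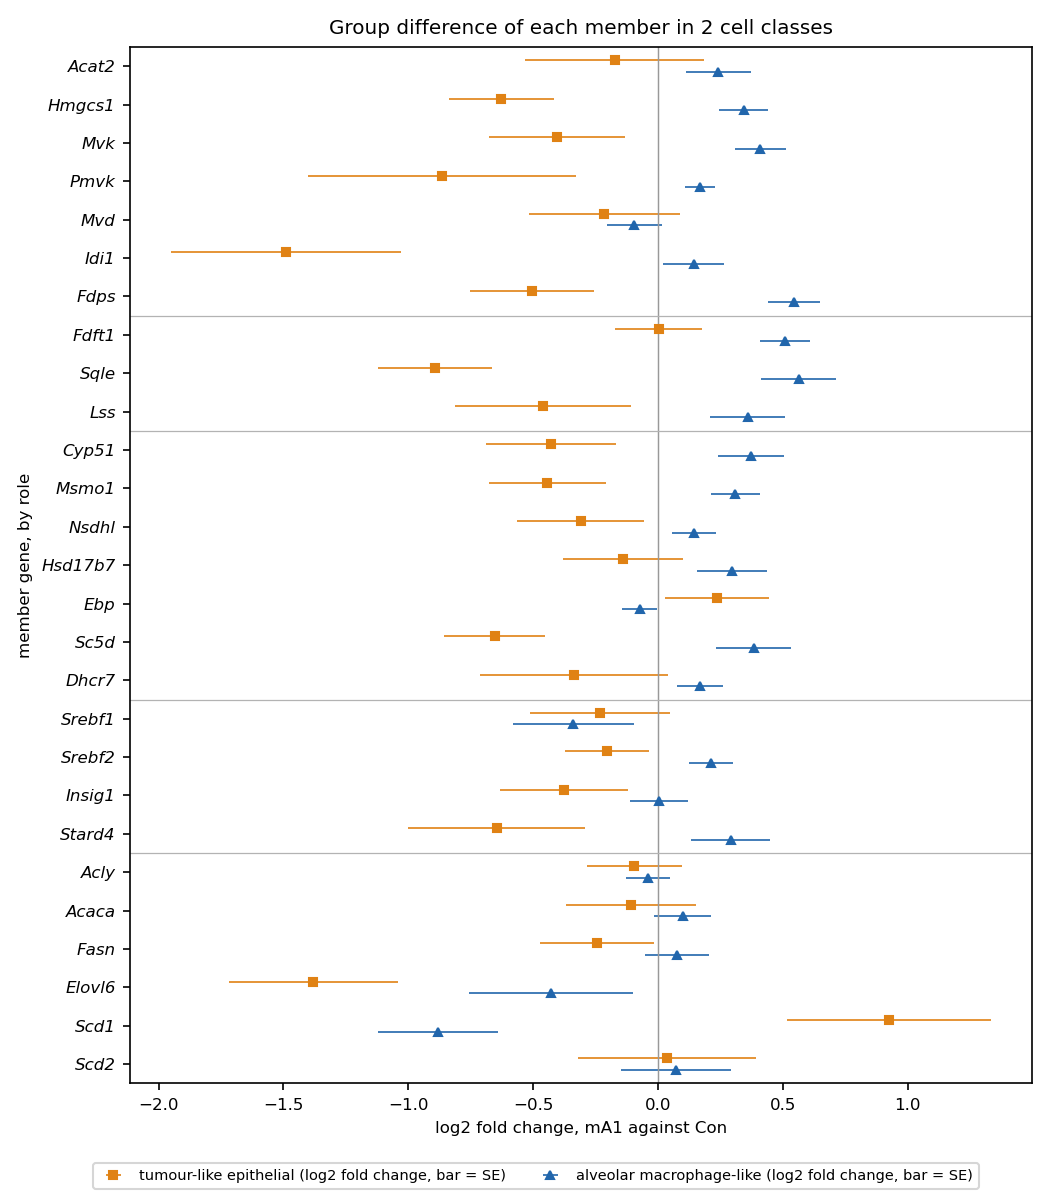
edgeR log2 fold change of mA1 against Con for each of the 27 genes, with its SE as a bar, in tumour-like epithelial cells (2 libraries against 2) and alveolar macrophage-like cells (4 tumours against 4). 4 epithelial and 21 macrophage values lie right of 0, and Scd1 lies right of 0 in epithelial cells and left of it in macrophages.

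In 12 other classes the groups were compared as well, and 0 of the 27 genes passed in any of them by edgeR or DESeq2. At an unadjusted p under 0.05, 0 to 2 of the tested members passed per class, where 122 of 3915 genes (neutrophil-like) to 714 of 6492 genes (CD8 T-like) did. The number tested ran from 4 in neutrophil-like and gamma-delta T-like cells to 27 in macrophage sub-cluster 6, where the median log2 fold change was -0.08. The class medians ran from -0.36 in mature dendritic-like cells to 0.17 in NK-like cells. Of all genes tested in each class, 0.373% were called in NK-like, 0.209% in B cell-like, 0.169% in CD8 T-like, 0.0933% in gamma-delta T-like and 0.0751% in plasma cell-like cells, 0.0212% in monocyte-like and in mature dendritic-like cells, and 0% in the other 5 classes.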

How the data were processed

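Single-cell 3' RNA libraries were read from the 4 matrices of counts (UMIs per gene and cell barcode, not normalized) that the authors deposited, with hashtag counts beside the genes. Cell Ranger 6.0.1 and build mm10 are named, per the submitters' processing notes, and the roles of these in further steps are not stated.

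Cells were kept from 500 UMIs and 250 genes upward, with mitochondrial UMIs up to 15% (scanpy 1.11.5, Python 3.11.15). Cells with both hashtags and cells called by Scrublet (174, 29, 65 and 0 cells in mA1 libraries 1 and 2 and Con libraries 1 and 2, so the caller did not work in Con library 2) were left out. Leiden clusters (2000 variable genes, 30 components, 15 neighbours, resolution 1, and 0.5 within macrophages and epithelial cells) were made without the 27 genes and other lipid genes, and called after cell type markers. Rebuilt names can differ from those of the study. For mA1 against Con, UMIs were summed per tumour in 9 classes and per library in 5, among them tumour-like cells, with at least 20 cells per sample. Class contrasts used sums per library with at least 10 cells, so that AT2-like sums of 12 to 83 cells entered. Depth of these sums was 255419 to 2331560 UMIs for AT2-like, 5113744 to 14504722 for tumour-like epithelial and 5277002 to 20674770 per tumour for alveolar macrophage-like cells. Sums were tested with edgeR 4.0.16 (quasi-likelihood, TMM, filterByExpr; R 4.3.3), with Benjamini-Hochberg adjustment over all genes tested and a threshold of 0.05. Class contrasts had the library as a block. A log2 fold change is given with its SE, and CPM values are UMIs per 1000000 of the sum. Shares of cells have Wilson 95% intervals, which cover counting error only.

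The members and lists were chosen with earlier results of these data known. Full values were given for the 10 members with the largest absolute log2 fold change in each comparison, and other genes were named from fixed lists (sterol, fatty acid, LXR and efflux, cell cycle, dissociation, free AT2 and free blood RNA) as those with the largest change or smallest p, of which some are not reported here. Alternatives were DESeq2 1.42.0, limma 3.58.1 with the library as a random block, other scaling and filters, thinned cells and samples left out; fits of single sub-clusters or without one, and those without shared barcodes or high doublet scores, were chosen after seeing the data. The scripts were tested on simulated data. Genes are counted near their 3' end, so levels are compared between cells and not between genes.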

Additional observations from a re-analysis of the deposited data

Results flagged for a closer look

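In alveolar macrophage-like cells, 2 of 54 groups of 4 tumours held a tumour far from the other 3, and chance alone puts about 1 in 20 groups there. Insig1 had 20.7 CPM in the tumour with hashtag 2 of mA1 library 2, where the other 3 mA1 tumours had 28.4 to 29.2 CPM. Nsdhl had 11.4 CPM in the tumour with hashtag 2 of Con library 1, where the other 3 Con tumours had 13.1 CPM each.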

How the results depend on the processing

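Of 1236 alternative values over 86 results, 1126 kept their direction and side of the threshold or stayed within 1.5 times the reported count. A count that stayed at 0, or a gene that failed the threshold in both fits with 1 sign, was taken as kept. Named genes dropped by a filter were not counted, so the 1126 is no measure of how firm the group differences are. For mA1 against Con in macrophages, where 4 genes were called, DESeq2 called 47, no filter 16, limma with the library as a random block 1, libraries as samples 0, sub-cluster 6 added 2, sub-cluster 5 left out 2, thinned cells 0 and clusters made with the 27 genes 2. Leaving out a tumour or library gave 1 to 358 (358 without Con library 1, 124 without mA1 library 1, 7 without the tumour with hashtag 1 of Con library 1). DESeq2 and no filter each called 2 members higher, and leaving out samples called 0 to 1 lower. In tumour-like cells (11 genes) DESeq2 called 98, no filter 378 with 1 member higher and 3 lower, and leaving out a library 4 to 163 with 0 to 2 members lower. The library numbers are shared by the groups only as numbers (correlation of deviations 0.133 in macrophages and -0.0843 in tumour-like cells); the replicate block called 31 genes in tumour-like cells and no member in either class. Sub-clusters taken alone, chosen after seeing the data, gave 65 genes, 1 member lower and 8 positive in sub-cluster 1, 13 positive, Pmvk at 0.326 and Fdps at 0.187 in sub-cluster 4, and 0 genes, 7 positive and Elovl6 at 0.457 in sub-cluster 6. AT2-like cells against sub-cluster 1 gave 1209 genes and 12 members higher, and sub-cluster 6 against macrophage-like cells 3 higher. Without shared barcodes or the top 5% of doublet scores, both chosen after seeing the data, 3 and 5 genes were called in tumour-like cells. Thinning called 4510 genes (5403 higher and 5029 lower unthinned) in tumour-like against macrophage-like cells with 3 members higher, 417 (1109 higher and 1081 lower) in AT2-like against tumour-like cells with 5 higher, 2119 (3103 higher and 3571 lower) in AT2-like against macrophage-like cells with 3 higher and 1 lower, and 1551 (2911 higher and 2939 lower) for cycling cells with 0 higher and 3 lower. Stard4 turned to -0.0399 there. Leaving out a library gave 883 to 2457 genes and 13 to 19 members higher in AT2-like against tumour-like cells. Without the replicate block, and in DESeq2, 1 member was higher in cycling cells. For the difference between classes (9 genes) RLE scaling called 4, and leaving out a library 2 to 58 with 0 to 1 member higher and 0 to 2 lower. Over the other classes (57 genes) no filter called 374. The cause of these changes was not tested. Thinning leaves few UMIs per gene. Members below the filter on low counts were not tested there, so its counts are not out of 27. The 15 and 12 AT2-like cells in the mA1 libraries limit every AT2-like value.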
